A study of Arabidopsis thaliana with 39 samples.

Results

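The first day of secondary dormancy induction was examined by comparing single Arabidopsis thaliana seeds held for 1 day under the inducing treatment (1d) with single seeds imbibed for 1 h (1h), over all nuclear genes. Both time points belong to a time course, and each was covered by 3 libraries of 32 seeds. The comparison used these 6 of the 39 samples of the series, and 190 of their 192 seeds, because 2 seeds of 1h had fewer than 5000 unique molecular identifiers (UMIs, one per captured transcript) on nuclear genes. All seeds were Col-0, the standard laboratory accession, and had been stored dry until they were after-ripened, that is, able to germinate readily. Seeds of 1h had taken up water for 1 h at 22 °C and stood for the untreated state. Seeds of 1d had lain on water-soaked paper at 30 °C in the dark for 1 day. Temperature and time in water thus differed together between the time points, light may have differed as well, and their effects cannot be told apart. The labels and methods describe the libraries as batches of seeds from one seed pool, so the p-values below measure the spread between batches of seeds and not between separately grown plants.

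A mature Arabidopsis seed holds an embryo, a single layer of living endosperm and a dead seed coat, and it carries messenger RNAs left over from seed maturation. In a water-filled seed these stored transcripts are degraded while genes for protein synthesis and metabolism are transcribed, and germination is promoted by gibberellin and light and blocked by abscisic acid (ABA). Secondary dormancy is the return of a non-dormant seed to a dormant state when conditions such as warmth and darkness do not allow germination.

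The kept seeds held a median of 32373 nuclear UMIs at 1h (from 5548 to 67412) and of 77455.5 at 1d (from 9358 to 226785). Summed over seeds, the libraries held 957862, 1171047 and 1011474 nuclear UMIs at 1h and 2824607, 2758354 and 2561195 at 1d. The 32 barcode numbers were the same in all 6 libraries. UMIs that fell outside nuclear protein-coding genes, called unspecific by the authors, made up 55.5, 62.9 and 41.9% of all UMIs in the libraries of 1h and 24.4, 17.8 and 21.7% in those of 1d. Libraries of the same time point resembled each other more than those of different time points, since the lowest correlation of log2 levels was 0.859 within 1h and 0.959 within 1d, against 0.563 to 0.698 between them. The second library of 1h had the highest unspecific share of the 6, and the third library of 1h had the lowest of its time point.

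In the quasi-likelihood test of edgeR on the summed counts, 14751 of 36899 nuclear genes had enough counts to be tested. At 1d 2453 genes were higher (16.6% of those tested) and 3295 were lower (22.3%) (thresholds: adjusted p of 0.05, log2 fold change of 1 in size). Together these calls were 39.0% of the genes, and in 59.0% of the genes the 3 libraries of one time point did not overlap with the 3 of the other. Falls were larger than rises, as 1944 genes fell by more than 2 on the log2 scale and 622 rose by more than 2. The median log2 fold change over all tested genes was 0.07, which is the background for every list below. All levels are TMM-normalised CPM, that is, UMIs of a gene scaled to a common total of nuclear UMIs, so that a gene is compared with the rest of the transcriptome of its library. Because one end of each transcript was counted, CPM values of different genes do not depend on transcript length. When the counts were scaled by the number of seeds instead, so that levels are UMIs per seed, the median of all genes moved to 1.45 and the split became 9455 genes higher and 1294 lower. On that scale the RNA content of a seed and the part of it that was captured and sequenced cannot be told apart.

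Genes lower at 1d included many that varied with the unspecific signal. A gene is said below to follow the unspecific UMIs when its counts correlated with them at an r over 0.3 over 666 kept seeds of 21 libraries, that is, of all time points and a control in which seed extracts were split. This held for 1921 of the 3295 lower genes (58.3%), 2 of the 2453 higher genes (0.0815%) and 178 of the 9003 genes without a call (1.98%). The seeds of 1h and 1d are among the 666 and their median unspecific UMIs also differed, at 31990 and 22254.5, so that a fall by itself can raise r. The medians were highest after 3 days (63661.5) and 5 days (78592.5) of treatment. A gene that is high at those time points can therefore reach a high r as well. A measure within the seeds of 1h alone, the rank correlation of a gene's share with the unspecific share after centring each library, was over 0.3 in 527 of the lower genes (16.0%), 2 of the higher and 63 of the others (0.700%). In a refit without the genes over the first limit 1810 genes were lower at 1d, of which 1374 were also lower in the reported fit. In a refit without those over the second limit 2926 were lower, of which 2768 were also lower in the reported fit. Transcripts that do not code for protein made up 22.1% of the lower genes, 1.71% of the higher genes and 1.73% of the rest. The part of unspecific signal in the falls was not tested. For lists with 2 or more falls over the first limit their number is given.

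The most abundant transcripts were of seed maturation at both time points. LCR67 (AT1G75830), which encodes a small cysteine-rich protein, was the leading transcript at 1h, with 4.06 to 5.12% of the nuclear UMIs of a library. At 1d the leading transcript was CRA1, encoding a 12S globulin, with 8.36 to 8.88%. The 10 leading genes held 17.6 to 21.5% of the UMIs at 1h and 23.8 to 24.4% at 1d. Transcripts of leaves were scarce, as a list of 12 vegetative markers took 0.031, 0.063 and 0.008% of the UMIs at 1h and 0.012, 0.010 and 0.008% at 1d. Markers of the seed coat took 0.009, 0.018 and 0.002% at 1h and 0.00149, 0.000761 and 0.00117% at 1d.

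**Figure D1:**
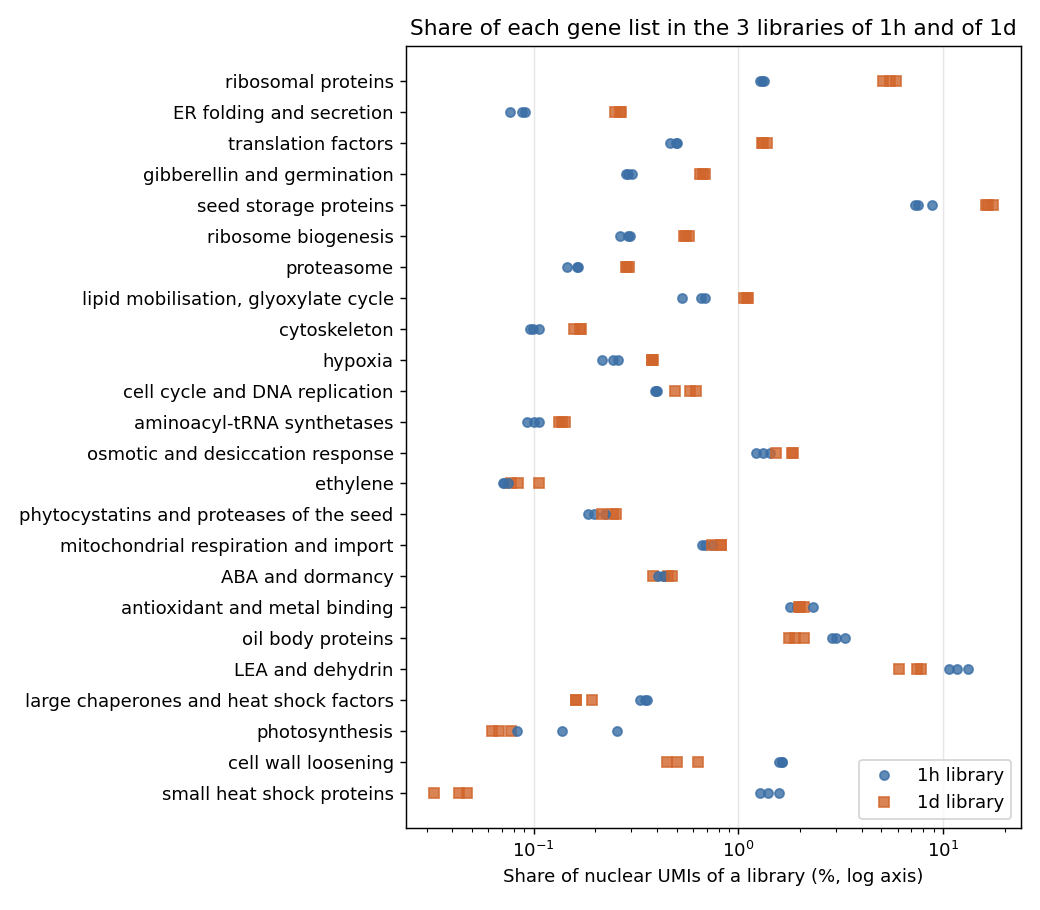
Percent of nuclear UMIs on the genes of each list, with 1 point for each of the 3 libraries of 1h and of 1d (log axis). Small heat shock proteins lie at 1.28 to 1.58% at 1h and at 0.033 to 0.047% at 1d, and ribosomal proteins at 1.27 to 1.34% and at 5.09 to 5.87%.

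Of the lists with at least 10 tested genes, small heat shock proteins were the most completely lost. These chaperones hold unfolding proteins in solution, and in Arabidopsis several of them are made during seed maturation as well as under heat. Of 20 genes in the list, 17 were tested, and all 17 fell, with a median log2 fold change of -3.96 and a range from -6.22 to -1.41. The 3 untested genes, AT1G59860, AT4G21870 and HSP18.2, had at most 16 counts summed over a time point. HSP17.6A (AT5G12030), a cytosolic member, was counted at 7038, 6101 and 9183 CPM in the libraries of 1h and at 64.7, 104 and 130.2 CPM in those of 1d. Its log2 fold change was -6.22 ± 0.32 (SE, n = 3 libraries per time point, edgeR adjusted p = 1.18e-10). HSP17.4 (AT3G46230), also in the list, stood at 4803, 4558 and 6087 CPM at 1h and at 93.9, 153 and 138 CPM at 1d. The groups were far apart for both genes, and HSP17.4 fell by 5.33 ± 0.27 on the log2 scale. AT1G52560, another chaperone of this family, was at 323, 239 and 410.2 CPM before and at 7.38, 9.35 and 8.23 CPM after (-5.27 ± 0.26).

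As a group, the small heat shock proteins took 1.39, 1.28 and 1.58% of the nuclear UMIs at 1h and 0.0326, 0.047 and 0.0432% at 1d, a 34.6-fold lower share. The exact two-sided permutation test of 3 against 3 libraries gave p = 0.1, the smallest it allows. The loss was visible in nearly every seed, since 94 of 96 seeds of 1d had a lower share than any of the 94 seeds of 1h, and the highest seed of 1d reached 0.590%. In UMIs per seed 14 of the 17 genes were still lower, with a median of -2.55. Only 1 of the 17 genes followed the unspecific UMIs. The 200 bases before the annotated start of HSP17.4 (TAIR10.1 chr3:16984868-16985067, minus strand) are shown because heat shock factors bind repeats of GAA in such promoters. Capitals mark matches to GAANNTTC, which reads the same on both strands.
HSP17.4: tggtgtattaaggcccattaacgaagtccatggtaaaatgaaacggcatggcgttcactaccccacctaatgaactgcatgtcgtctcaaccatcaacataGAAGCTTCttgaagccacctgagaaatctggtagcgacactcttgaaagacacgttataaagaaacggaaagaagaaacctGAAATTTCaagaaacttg
A match to these letters was present in 4 of the 17 promoters of the list (23.5%) and in 7.58% of the 27431 nuclear protein-coding genes. The match describes the sequence only.

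**Figure D2:**
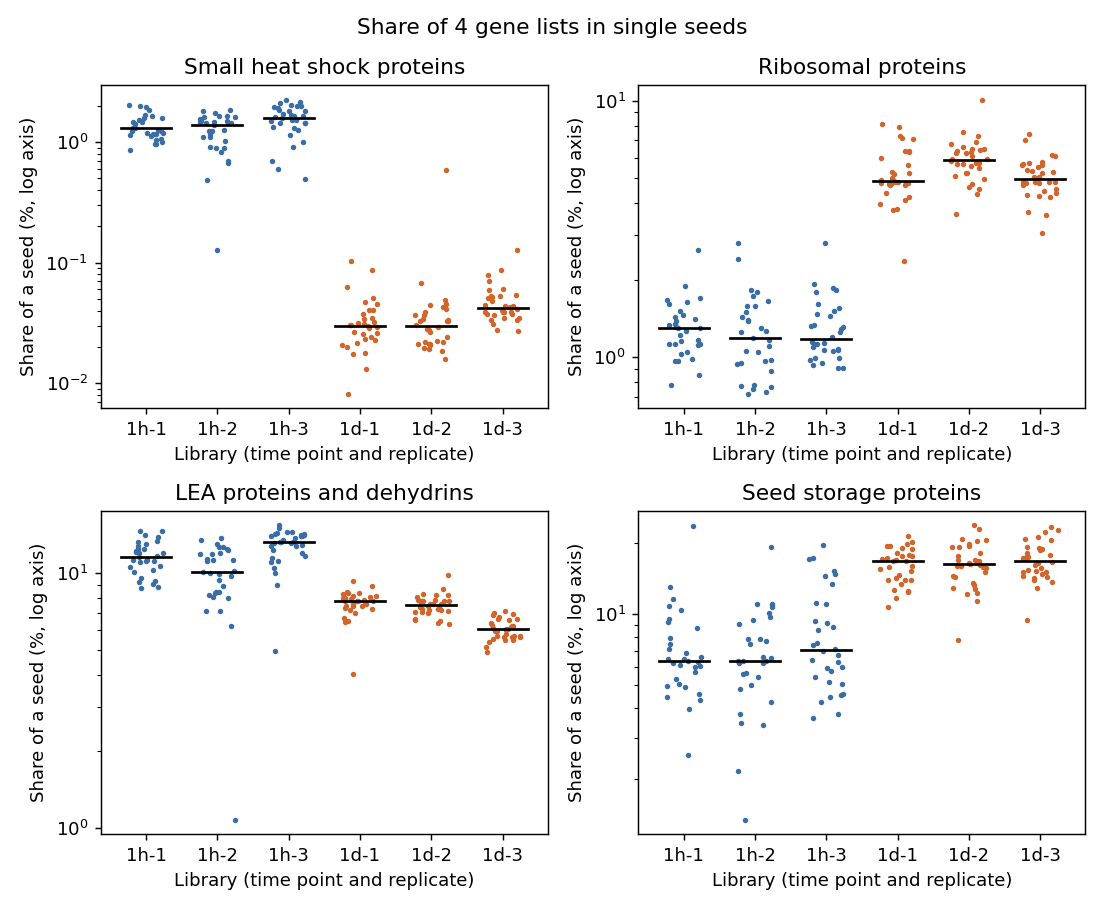
Percent of nuclear UMIs on 4 gene lists in each of the 94 seeds of 1h and the 96 seeds of 1d, drawn by library. For small heat shock proteins 94 seeds of 1d lie below every seed of 1h, for ribosomal proteins 95 seeds of 1d lie above every seed of 1h, and for storage and LEA proteins the seeds of the time points overlap.

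Larger chaperones and heat shock factors fell in part. In this list 13 of 29 tested genes fell and 3 rose, with a median of -0.48, and its share went from 0.349, 0.33 and 0.359% to 0.161, 0.192 and 0.161%. HSFA9 (AT5G54070), a heat shock factor specific to maturing seeds, was at 373, 291 and 439 CPM at 1h and at 17.9, 19.1 and 22.5 CPM at 1d (-4.21 ± 0.22, edgeR adjusted p = 1.57e-10). HSP101 (AT1G74310), which pulls proteins out of aggregates, fell by 4.50 ± 0.24 from 479, 431 and 559.9 CPM. Hsp70b (AT1G16030), a heat-inducible HSP70, fell by 5.05 ± 0.27 and was among the 10 largest falls. DREB2A (AT5G05410), a transcription factor of drought and heat responses, fell by 3.51 ± 0.24. The constitutive HSP70 of the cytosol went the other way, as HSC70-1 (AT5G02500) rose from 170.0, 150.4 and 171 CPM to 659, 819.7 and 695 CPM (2.15 ± 0.19). Besides HSC70-1, the genes of this list that rose were BIP2 (2.67 ± 0.37), the HSP70 of the endoplasmic reticulum, and Hsp81.4 (1.07 ± 0.41), an HSP90. Among the named genes of this list, the heat-inducible and seed-specific ones were lower and the constitutive HSP70 was higher. In UMIs per seed 6 genes of the list were lower and 13 higher, with a median of 0.90.

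Proteins of desiccation tolerance were lower as a share of the transcriptome. Late embryogenesis abundant (LEA) proteins and dehydrins are hydrophilic proteins that accumulate in drying seeds and protect membranes and proteins. Of 48 tested LEA genes, 23 fell and 4 rose, with a median of -0.92, and 3 of the 23 followed the unspecific UMIs. Their share was 11.8, 10.7 and 13.3% at 1h and 7.83, 7.5 and 6.08% at 1d (exact permutation p = 0.1, the smallest possible). This result depended on the scale, because in UMIs per seed 18 LEA genes were higher and 7 lower, with a median of 0.50.

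RAB18 (AT5G66400), an ABA-responsive dehydrin, was counted at 24633, 20414 and 30285 CPM at 1h and at 11697, 9855 and 7878 CPM at 1d (-1.36 ± 0.26, edgeR adjusted p = 0.000219). GEA6 (AT2G40170), also called EM6, went from 20739, 18426 and 29402 to 9470.4, 9907 and 6521 CPM (-1.40 ± 0.27). Both stayed among the 8 most abundant transcripts at 1d, and in UMIs per seed their log2 fold changes were 0.071 and 0.027. Some members were lost on either scale. LTI30 (AT3G50970), a cold-induced dehydrin, fell from 764, 669 and 1097 to 23.6, 40.98 and 47.5 CPM (-4.50 ± 0.27). The LEA gene AT4G36600 fell by 3.67 ± 0.21 and AT2G18340 fell by 3.59 ± 0.22. EM1 (AT3G51810), the close relative of EM6, rose from 2569, 2184 and 3709 to 8402, 9027 and 5969.6 CPM (1.47 ± 0.25), and SAG21 (AT4G02380), a LEA protein of mitochondria, rose from 5.15, 12.3 and 2.22 to 37.98, 27.3 and 28.1 CPM. The 2 EM genes therefore moved in opposite directions as shares of the transcriptome.

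Promoters of RAB18 (chr5:26519448-26519647, minus strand) and GEA6 (chr2:16780369-16780568, minus strand) are shown because ABA-responsive genes carry ABA-responsive elements (ABREs). Capitals mark ACGTGG or ACGTGT on either strand, and the matches of GEA6 at the centre of ACACGTGG overlap.
RAB18: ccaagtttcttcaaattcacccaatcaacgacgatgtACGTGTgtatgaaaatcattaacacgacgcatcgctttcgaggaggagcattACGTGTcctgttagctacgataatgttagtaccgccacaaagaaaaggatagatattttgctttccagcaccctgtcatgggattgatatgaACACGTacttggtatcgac
GEA6: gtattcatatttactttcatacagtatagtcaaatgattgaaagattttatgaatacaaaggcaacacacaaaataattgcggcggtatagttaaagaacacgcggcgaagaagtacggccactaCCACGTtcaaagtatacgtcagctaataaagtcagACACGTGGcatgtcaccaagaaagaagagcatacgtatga
Such letters were found in 31 of the 48 promoters of tested LEA genes (64.6%) and in 14.0% of all nuclear protein-coding genes.

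Among 19 tested genes of osmotic and desiccation responses, 8 fell and 4 rose (median -0.89), whereas in UMIs per seed 1 was lower and 8 were higher. The share of this list was nevertheless higher at 1d in every library, at 1.32, 1.22 and 1.43% at 1h and 1.84, 1.85 and 1.52% at 1d (exact permutation p = 0.1, the smallest possible). GolS2 (AT1G56600), which starts the synthesis of raffinose sugars, went from 965, 713 and 969 to 149, 164 and 167 CPM (-2.47 ± 0.20), whereas STS (AT4G01970), which makes stachyose from raffinose, rose from 21.6, 17.2 and 27.7 to 71.7, 95.99 and 84.96 CPM. The proteins that coat oil bodies took 3.01, 2.87 and 3.34% of the UMIs at 1h and 1.77, 2.1 and 1.88% at 1d. Of the 14 oil body genes 5 fell and none rose in the reported fit, and in UMIs per seed 5 rose and none fell. OLEO1 (AT4G25140), the main oleosin, did not pass the fold threshold (-0.61 ± 0.23). Of 32 tested photosynthesis genes 14 fell and 2 rose (median -0.79, 3 of the 14 following the unspecific UMIs and none over the limit within 1h), whereas in UMIs per seed 6 were lower and 11 higher. Without the third library of 1d 1 gene rose. Their share varied among the libraries of 1h, at 0.138, 0.257 and 0.0827%, with the highest value in the library with the most unspecific UMIs, and was 0.0777, 0.0673 and 0.0625% at 1d. Stored transcripts of this group included ELIP1 (AT3G22840), a light-stress protein of the chloroplast, at 29.9, 82.6 and 47.7 CPM at 1h and 2.81, 2.88 and 5.61 CPM at 1d. CA1 (AT3G01500), a chloroplast carbonic anhydrase, belongs to the list of vegetative markers and not to this one. It was at 105, 120.2 and 39.9 CPM at 1h and 10.5, 5.39 and 8.23 CPM at 1d. For both genes r with the unspecific UMIs was over 0.3, at 0.67 and 0.74, while the rank correlation within 1h was 0.13 and 0.42, and the part of this signal in their falls was not tested. In bulk sums of whole seeds, fewer cells of a type and less RNA per cell cannot be told apart.

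**Figure D3:**
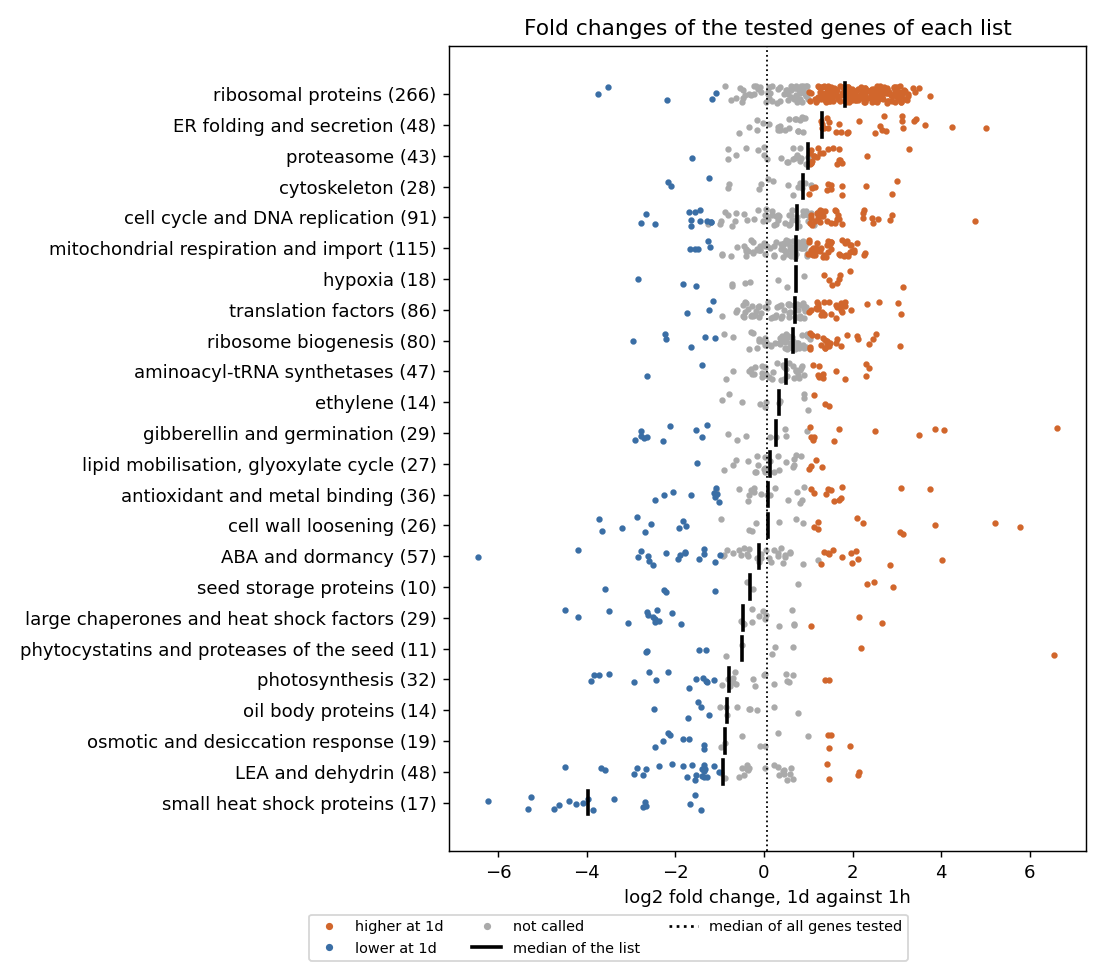
Log2 fold change (1d against 1h) of every tested gene, by list, with the median of each list and that of all 14751 tested genes (0.07). All 17 small heat shock proteins lie below -1, and 199 of 266 ribosomal protein genes were called higher.

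Among the gains, protein synthesis stood first. Ribosomal proteins, chosen by product name and therefore including those of chloroplasts and mitochondria, rose in 199 of 266 tested genes (74.8%, against 16.6% of all genes) and fell in 5, of which 3 followed the unspecific UMIs. The median log2 fold change was 1.84. The share of the list was 1.34, 1.27 and 1.31% at 1h and 5.5, 5.87 and 5.09% at 1d, a 4.20-fold higher share (exact permutation p = 0.1, the smallest possible). In 95 of 96 seeds of 1d it was above every seed of 1h.

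AT2G40205, a very short L41 protein of the large subunit, had 11.3, 10.6 and 12.2 CPM at 1h and 188, 131 and 140.0 CPM at 1d (3.75 ± 0.25, edgeR adjusted p = 2.67e-09). AT2G41840, an S5-type protein of the small subunit, was at 76.2, 58.8 and 89.8 CPM before and 840.4, 922 and 751 CPM after (3.49 ± 0.22). RP1 (AT1G43170), an abundant member, rose from 143, 126 and 106 to 1035, 1308 and 1052 CPM (3.17 ± 0.21). In these genes the libraries of 1d were close to each other and far above those of 1h. The members that fell did not include abundant ones. AT2G28815, a 50S-type L16 protein, was at 40.2, 66.2 and 18.8 CPM at 1h and 2.81, 2.16 and 4.49 CPM at 1d.

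Translation factors rose in 29 of 86 tested genes and fell in 3 (median 0.69), and their share went from 0.499, 0.463 and 0.496% to 1.3, 1.39 and 1.32%. All 96 seeds of 1d had a higher share than any seed of 1h. The subunits that recharge elongation factor 1 with GTP led the list. eEF-1Bb1 (AT1G30230) was counted at 235, 159 and 303 CPM at 1h and at 2096, 1985 and 1850.0 CPM at 1d (3.10 ± 0.24, edgeR adjusted p = 1.13e-08), and AT5G19510 rose by 3.02 ± 0.21. AT5G60390, a gene of the EF-Tu family, which brings aminoacyl-tRNA to the ribosome, rose from 277, 246 and 261 to 1369.6, 1775 and 1626 CPM. The promoters of AT2G41840 (chr2:17461540-17461739, minus strand) and eEF-1Bb1 (chr1:10638678-10638877, plus strand) are shown for the site II element of ribosomal protein genes. Capitals mark TGGGCC or TGGGCT on either strand.
AT2G41840: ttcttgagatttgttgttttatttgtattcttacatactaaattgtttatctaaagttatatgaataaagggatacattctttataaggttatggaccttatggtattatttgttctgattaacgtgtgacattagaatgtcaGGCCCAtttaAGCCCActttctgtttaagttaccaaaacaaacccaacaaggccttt
eEF-1Bb1: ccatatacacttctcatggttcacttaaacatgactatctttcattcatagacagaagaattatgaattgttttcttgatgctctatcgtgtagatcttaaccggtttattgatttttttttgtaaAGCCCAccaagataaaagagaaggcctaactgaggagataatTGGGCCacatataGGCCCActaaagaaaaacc
Matches were present in 157 of the 266 promoters of the ribosomal protein list (59.0%), in 31.4% of all genes that were higher at 1d, in 12.5% of those that were lower, in 23.7% of all tested protein-coding genes and in 17.6% of the 27431 promoters. They were also present in 9 of the 17 promoters of small heat shock proteins (52.9%), all of which fell. The telo box AAACCCTA, searched in the same way, was found in 12.8% of the ribosomal list and in 3.72% of all promoters.

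Genes that assemble ribosomes and charge tRNAs rose in part. Of 80 tested genes of ribosome biogenesis, 24 rose and 6 fell (median 0.65, 4 of the 6 following the unspecific UMIs and 1 over the limit within 1h). NAP57 (AT3G57150), the pseudouridine synthase of box H/ACA particles, was at 56.7, 58.03 and 56.5 CPM at 1h and 538, 486 and 409 CPM at 1d (3.06 ± 0.20), and AT5G27120, a NOP56-like protein, rose by 2.52 ± 0.22. FIB1 (AT5G52470), the methyltransferase fibrillarin, rose by 1.39 ± 0.19. Of 47 aminoacyl-tRNA synthetase genes 11 rose (23.4%, against 16.6% of all genes) and 2 fell (median 0.49). For example ALATS (AT1G50200), which charges alanine, rose from 69.02, 51.5 and 82.05 to 167, 178 and 164 CPM. None of the rises in these groups was in a gene that followed the unspecific UMIs, as was so for all but 2 of the 2453 higher genes. It therefore says little about these groups. In the refit without the genes that followed the unspecific UMIs, however, 19 biogenesis genes and 9 synthetase genes rose, with medians of 0.47 and 0.26. Of the translation factors 22 rose and 4 fell in that refit.

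Folding and secretion in the endoplasmic reticulum rose with no exception among the calls. In this list 26 of 48 tested genes rose, none fell, and the median was 1.30. Its share was 0.0873, 0.0901 and 0.0766% at 1h and 0.25, 0.266 and 0.263% at 1d, and 94 of 96 seeds of 1d were above every seed of 1h. SHD (AT4G24190), the HSP90-type chaperone of this compartment, had 4.12, 4.09 and 1.11 CPM at 1h and 109, 104 and 106 CPM at 1d (5.02 ± 0.31, edgeR adjusted p = 9.39e-10). CRT1a (AT1G56340), the calcium-binding chaperone calreticulin, was at 7.21, 7.36 and 2.22 CPM and then at 109, 100.3 and 125 CPM (4.25 ± 0.29). AT4G40042, a subunit of the signal peptidase, rose by 3.63 ± 0.44. The levels at 1h were only a few CPM for these genes, and no library of 1h came near a library of 1d.

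The proteasome, which degrades tagged proteins, rose in 21 of 43 tested genes and fell in 1 (median 0.99), and its share went from 0.165, 0.145 and 0.162% to 0.283, 0.292 and 0.285%. In the refit without the genes that followed the unspecific UMIs 11 proteasome genes rose and 3 fell (median 0.76). PAD2 (AT5G66140), an alpha subunit of the core, was at 22.7, 10.6 and 19.96 CPM at 1h and 178, 162 and 167 CPM at 1d (3.28 ± 0.24). Of 115 tested genes of mitochondrial respiration and import 43 rose and 5 fell (median 0.73), or 30 and 5 in that refit. AT2G47690, a subunit-like protein of complex I, was at 2.06, 5.72 and 5.54 CPM at 1h and 21.5, 23.4 and 20.96 CPM at 1d, and AT2G19680, a subunit of the ATP synthase, rose by 2.29 ± 0.47. ATOEP16-2 (AT4G16160), of the import channel family, was the most abundant gene of the list and fell from 2161, 1949 and 2602 to 769, 838 and 691 CPM, a call that was lost in UMIs per seed (-0.13).

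Genes of cell structure and division rose in part. Of 28 cytoskeleton genes 12 rose and 3 fell (median 0.89), and TUB2 (AT5G62690), a beta-tubulin, went from 14.4, 24.5 and 27.7 to 188, 174 and 177 CPM (3.01 ± 0.23). TUA6 (AT4G14960), an alpha-tubulin, rose by 2.88 ± 0.31. Of 91 genes of the cell cycle and DNA replication 34 rose and 12 fell (median 0.75, 7 of the 12 following the unspecific UMIs and 2 over the limit within 1h). The genes of this list that rose most were histones. HTA8 (AT2G38810), a histone H2A, had 0, 1.63 and 0 CPM at 1h and 23.9, 19.8 and 13.8 CPM at 1d, HTB9 (AT3G45980), a histone H2B, rose by 2.89 ± 0.29, and the histone gene AT5G65360 rose by 2.85 ± 0.33. In contrast AT1G08170, a histone family gene abundant at 1h, fell from 618, 555 and 792 to 115, 154 and 87.2 CPM (-2.46 ± 0.23). CYCD1;1 (AT1G70210), a cyclin, fell by 2.66 ± 0.39, with an r of 0.63 with the unspecific UMIs and a rank correlation of 0.35 within 1h. Reads were kept only where they mapped to one place, so genes with near-identical copies, as among ribosomal proteins, tubulins, histones and 2S albumins, are uncertain in level.

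The storage protein genes split into rising and falling members, while the share of the group was 2.12-fold higher at 1d. These genes encode 12S globulins (cruciferins) and 2S albumins, the nitrogen store of the seed, and are transcribed during maturation. The 10 genes took 7.55, 7.33 and 8.83% of the nuclear UMIs at 1h and 16.2, 16.6 and 17.5% at 1d. Of the 10, 3 rose, 4 fell and 3 had no call, with a median of -0.31. CRA1 (AT5G44120), a 12S globulin, was counted at 11146, 9833 and 12642 CPM at 1h and at 86028, 82927 and 85113 CPM at 1d (2.92 ± 0.28, edgeR adjusted p = 1.28e-07). CRU3 (AT4G28520), a second globulin, rose from 7004, 5694 and 7259 to 34764, 37485 and 39486 CPM (2.49 ± 0.25). The third globulin, CRU2 (AT1G03880), fell from 5019.7, 4174 and 6105 to 956, 1176 and 1153 CPM (-2.22 ± 0.22, or -0.80 and no call in UMIs per seed). The 3 globulins were within a few-fold of each other at 1h, whereas at 1d CRU2 lay far below CRA1 and CRU3.

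Among the albumins SESA2 (AT4G27150) rose from 347, 334 and 538 to 1997, 1926 and 2222 CPM (2.34 ± 0.22). SESA3 (AT4G27160), its neighbour on chromosome 4, fell from 7348, 7148 and 7084 to 1552, 1506 and 1459 CPM (-2.26 ± 0.21, or -0.87 and no call in UMIs per seed). SESA4 (AT4G27170), the next gene, fell from 2151, 2527 and 4017 to 206, 218 and 303 CPM (-3.58 ± 0.27). SESA5 (AT5G54740), the most abundant albumin, had no call (-0.37 ± 0.27). Single seeds ranged from 1.35 to 23.5% storage UMIs at 1h and from 7.79 to 23.7% at 1d, so that the time points overlapped, and all 96 seeds of 1d were above the median seed of 1h. In UMIs per seed 6 storage genes were higher and 1 lower.

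The promoters of CRA1 (chr5:17758337-17758536, minus strand), which rose, and SESA4 (chr4:13613396-13613595, plus strand), which fell, are shown because both carry the RY element bound by the seed maturation factors ABI3 and FUS3. Capitals mark CATGCA on either strand, and several of the 6 matches of SESA4 overlap.
CRA1: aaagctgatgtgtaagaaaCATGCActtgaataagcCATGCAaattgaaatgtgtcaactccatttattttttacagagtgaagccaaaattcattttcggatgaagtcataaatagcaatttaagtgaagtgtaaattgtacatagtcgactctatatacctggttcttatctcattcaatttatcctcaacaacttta
SESA4: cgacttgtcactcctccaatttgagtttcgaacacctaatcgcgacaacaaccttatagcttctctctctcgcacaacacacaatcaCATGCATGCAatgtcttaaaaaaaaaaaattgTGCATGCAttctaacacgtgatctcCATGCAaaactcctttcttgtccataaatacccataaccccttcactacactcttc
Matches occurred in 9 of the 10 promoters of the storage protein list (90.0%) and in 6.69% of all promoters, so that the element was present in members that rose and in members that fell.

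Genes of ABA and dormancy moved in both directions, and their share of the UMIs did not separate the time points, at 0.428, 0.406 and 0.432% at 1h and 0.383, 0.455 and 0.476% at 1d (exact two-sided permutation p = 0.7). Of 57 tested genes 12 rose (21.1%, against 16.6% of all genes) and 17 fell (29.8%, against 22.3%), with a median of -0.12. Of the 17, 6 followed the unspecific UMIs and 1 was over the limit within 1h. In UMIs per seed 32 genes of the list were higher and 6 lower. DOG1 (AT5G45830), which sets the depth of seed dormancy, was at 37.1, 26.97 and 29.9 CPM at 1h and 3.52, 5.39 and 7.49 CPM at 1d (-2.51 ± 0.33, edgeR adjusted p = 6.48e-06). A DOG1-like gene, AT4G18690, went from 15.5, 2.45 and 4.43 to 91.4, 124 and 138 CPM (4.03 ± 0.36). The remaining tested genes of that family, AT4G18650, AT4G18660 and AT4G18680, had no call. E12A11 (AT1G18100), known as MFT, which regulates germination through ABA and gibberellin, rose from 52.5, 45.8 and 67.6 to 366, 398 and 418 CPM (2.84 ± 0.20).

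Among the transcription factors of ABA responses, ABI3 (AT3G24650) rose from 89.6, 90.7 and 113 to 237, 271 and 306 CPM (1.48 ± 0.19) and ABI5 (AT2G36270) fell from 463, 357 and 578 to 177, 189 and 180.0 CPM (-1.35 ± 0.20, or 0.072 in UMIs per seed). ABI4 (AT2G40220) rose by 1.76 ± 0.48, EEL (AT2G41070), a relative of ABI5, by 1.29 ± 0.19, and AGL67 (AT1G77950), a MADS-domain factor of maturation, by 1.45 ± 0.19. FUS3 (AT3G26790) had no call (-0.15 ± 0.32). SOM (AT1G03790), a zinc finger protein that represses germination in the dark, was at 657, 609 and 721 CPM at 1h and 502, 732 and 598 CPM at 1d, and the groups overlapped.

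ABA is perceived by receptors of the PYR/PYL family, which inhibit clade A protein phosphatases (PP2Cs) and so release SnRK2 kinases. PYL12 (AT5G45870) had 111 counts in the seeds of 1h and 3 in those of 1d, and its rate was 99.2-fold lower at 1d (95% exact interval of counting error from 33.1 to 488). PYL11 (AT5G45860), which lies beside it, went from 18.5, 22.9 and 48.8 to 0.352, 4.31 and 8.23 CPM (-1.38 and no call in UMIs per seed), and PYL1 (AT5G46790) fell by 2.85 ± 0.47. PYL4 (AT2G38310) and PYL13 (AT4G18620) rose by 2.09 ± 0.42 and 1.99 ± 0.37. Among the phosphatases AHG1 (AT5G51760), which acts in seeds with DOG1, fell from 411, 394 and 526 to 123, 121 and 112 CPM (-1.90 ± 0.18, or -0.49 and no call in UMIs per seed) and ABI2 (AT5G57050) fell by 2.59 ± 0.22, while HAI3 (AT2G29380) rose by 2.11 ± 0.23. The kinase gene OST1 (AT4G33950) fell by 2.62 ± 0.37 with an r of 0.65 with the unspecific UMIs and a rank correlation of 0.29 within 1h. In ABA metabolism ABA1 (AT5G67030), the first enzyme of the pathway, fell by 1.36 ± 0.21 (0.063 in UMIs per seed), and CYP707A2 (AT2G29090), the main ABA hydroxylase of imbibed seeds, fell from 60.8, 76.8 and 36.6 to 15.8, 20.1 and 15.3 CPM (-1.78 ± 0.25, or -0.42 and no call in UMIs per seed). Receptors, phosphatases and transcription factors thus each held members called in either direction. Calls of either direction were common, at 39.0% of all tested genes.

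In the gibberellin and germination list, 11 of 29 tested genes rose and 10 fell (median 0.28), and in UMIs per seed 16 were higher and 5 lower. The share of the list was 0.288, 0.301 and 0.282% at 1h and 0.685, 0.675 and 0.651% at 1d, and 95 of 96 seeds of 1d were above every seed of 1h. Most of the UMIs of the list were of GASA3 (AT4G09600) and GASA2 (AT4G09610) at both time points. GASA3 averaged 45.2 UMIs per seed at 1h and 261 at 1d, and GASA2 23.9 and 89.1. The share is therefore mostly not that of the enzymes, DELLA proteins and light receptors described below. GA20OX3 (AT5G07200), a late enzyme of gibberellin synthesis, was counted at 14.4, 10.6 and 2.22 CPM at 1h and at 769, 899.5 and 1072 CPM at 1d, the second largest rise among named genes (6.61 ± 0.33, edgeR adjusted p = 1.18e-10). GA3 (AT5G25900), an early enzyme, rose by 1.11 ± 0.19, or by 0.96, under the fold threshold, without the second library of 1h. The enzymes that complete the active hormone fell, as GA3OX1 (AT1G15550) fell by 2.28 ± 0.48 (-0.91 and no call in UMIs per seed), GA3OX2 (AT1G80340) fell by 2.72 ± 0.37 and GA3OX3 (AT4G21690) fell by 2.79 ± 0.44. Of the enzymes that inactivate gibberellin, GA2OX8 (AT4G21200) fell by 2.92 ± 0.29 and ATGA2OX3 (AT2G34555) fell by 2.77 ± 0.32, while GA2OX2 (AT1G30040) rose from 15.5, 14.7 and 15.5 to 45.7, 26.2 and 21.7 CPM (1.04 ± 0.31). This rise was close to the threshold and was lost without the first library of 1d (0.61) and without the second library of 1h (0.99). GA3OX2, which acts in germinating seeds, was at 33.99, 40.1 and 18.8 CPM at 1h and 4.22, 3.24 and 6.74 CPM at 1d. Of the 10 genes that fell, 9 followed the unspecific UMIs, with an r from 0.36 to 0.61, and 3 of these 9 were over the limit within 1h. The exception was RGL3 (AT5G17490), whose log2 fold change was -1.28 ± 0.31 in the reported fit and 0.088 in UMIs per seed. The part of that signal in these falls was not tested.

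DELLA proteins, the repressors of gibberellin responses, rose in 3 of 4 tested genes. RGL2 (AT3G03450), the DELLA of seed germination, was at 12.4, 6.54 and 9.98 CPM at 1h and 145, 147 and 124 CPM at 1d (3.87 ± 0.25, edgeR adjusted p = 1.91e-09). RGA1 (AT2G01570), known as RGA, went from 4.12, 3.27 and 2.22 to 66.8, 61.1 and 36.3 CPM, and GAI (AT1G14920) from 17.5, 11.4 and 19.96 to 124, 85.6 and 65.1 CPM. SLY1 (AT4G24210), the F-box protein that marks DELLAs for degradation, rose by 1.69 ± 0.27. The light receptors of germination rose as well. PHYA (AT1G09570) was at 58.7, 35.1 and 43.2 CPM before and 509, 530.3 and 495 CPM after (3.49 ± 0.22), PHYB (AT2G18790) rose by 1.59 ± 0.28 and PIL5 (AT2G20180), the phytochrome-binding factor PIF1 that represses germination in the dark, by 1.07 ± 0.19, or by 0.93, under the fold threshold, without the second library of 1h. Repressors and promoters of germination therefore rose side by side.

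**Figure D4:**
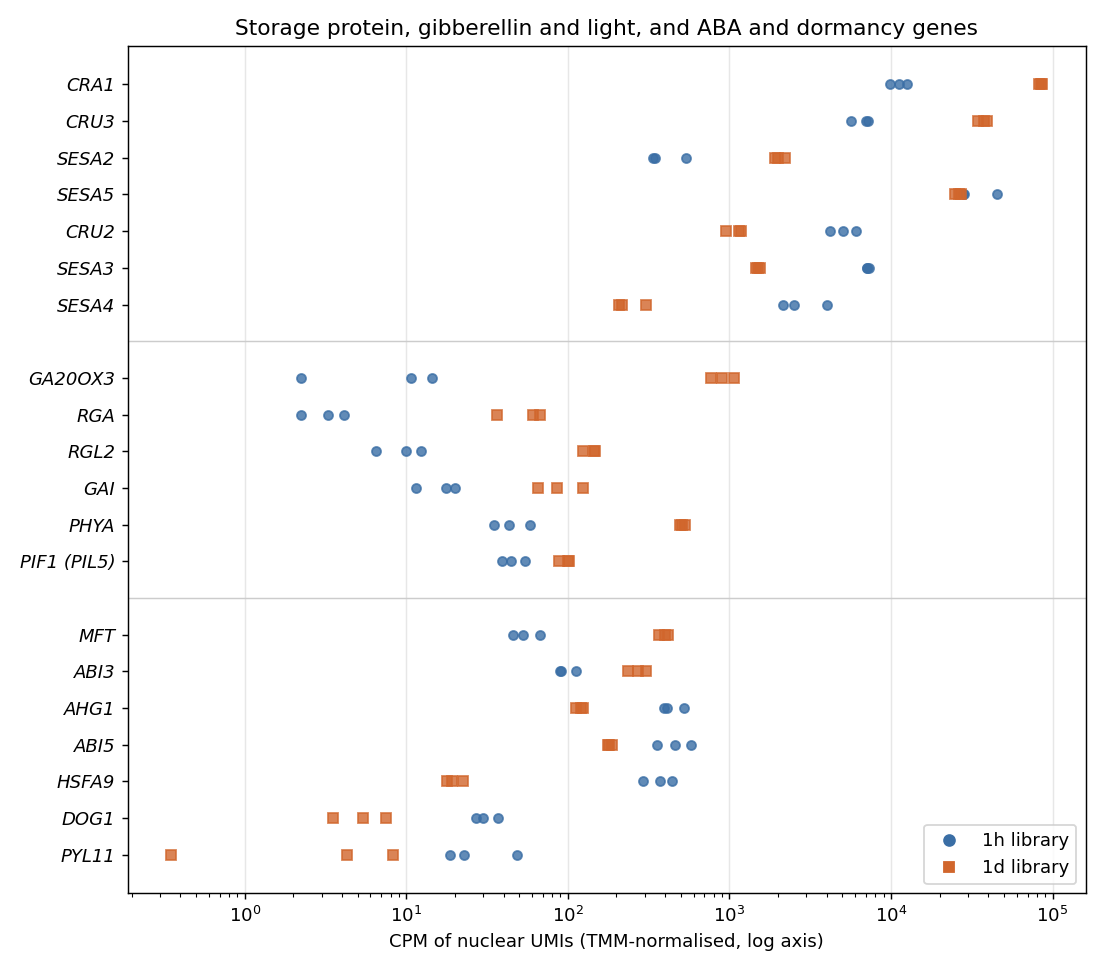
Levels of storage protein, gibberellin and light, and ABA and dormancy genes (3 panels from top to bottom) in each library, in CPM on a log axis, with a circle for a library of 1h and a square for a library of 1d. CRA1 lies between 9833 and 12642 CPM at 1h and between 82927 and 86028 CPM at 1d, and in DOG1 the 3 libraries of 1d, at 3.52 to 7.49 CPM, lie below those of 1h.

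Cell wall genes moved in both directions. Of 26 tested genes of wall loosening 10 rose and 9 fell (5 of the 9 following the unspecific UMIs and 2 over the limit within 1h), in UMIs per seed 14 were higher and 6 lower, and the share of the list went from 1.63, 1.64 and 1.58% to 0.499, 0.45 and 0.637%. EPR1 (AT2G27380), an extensin of the endosperm, held most of this share and fell from 11336, 10950.1 and 12377 to 3035, 2710.4 and 3986 CPM (-1.83 ± 0.23, or -0.44 and no call in UMIs per seed). XTH25 (AT5G57550), a xyloglucan-remodelling enzyme, fell from 4137, 3936 and 4987 to 599.5, 554 and 641 CPM. By contrast XTH11 (AT3G48580) rose from 41.2, 40.9 and 41.02 to 610.1, 499 and 673 CPM and XTH15 (AT4G14130), of the same family, from 2.06, 4.09 and 2.22 to 166, 168 and 156 CPM. EXPA4 (AT2G39700), an expansin, rose by 5.22 ± 0.40. The 10 endosperm markers took 1.16, 1.15 and 1.11% of the UMIs at 1h and 0.314, 0.283 and 0.426% at 1d. Nearly all of this was EPR1, with a mean of 1.13% at 1h and 0.332% at 1d, so that the share does not describe the other markers. Of 6 tested markers 1 rose and 1 fell. The number that rose was between 0 and 2 when single libraries were left out.

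Lists of metabolism and stress held members of both directions. Among 27 tested genes of lipid mobilisation 4 rose (14.8%, near the 16.6% of all genes) and 1 fell (median 0.13). Without the second library of 1h 2 rose and 2 fell, and in the refit without the genes that followed the unspecific UMIs 1 rose and 2 fell. In UMIs per seed 23 were higher and none lower. The share went from 0.654, 0.531 and 0.686% to 1.11, 1.06 and 1.1%. ICL (AT3G21720), an enzyme of the glyoxylate cycle, rose from 2505, 1806 and 3126 to 6529, 5905 and 6044 CPM, and MLS (AT5G03860), the next enzyme of that cycle, had no call (0.24 ± 0.19). Of 18 hypoxia genes 8 rose (44.4%, against 16.6% of all genes) and 3 fell (median 0.72), and in UMIs per seed 12 were higher and 1 lower. Their share was 0.243, 0.216 and 0.258% at 1h and 0.379, 0.382 and 0.379% at 1d, a 1.59-fold higher share (exact permutation p = 0.1, the smallest possible), and 70 of 96 seeds of 1d were above every seed of 1h. The fermentation genes ADH1 (AT1G77120) and PDC2 (AT5G54960) fell by 2.85 ± 0.19 and 1.84 ± 0.21 (PDC2 at -0.43 and without a call in UMIs per seed), whereas EBP (AT3G16770), an ethylene response factor of hypoxia, rose from 769, 554 and 908 to 2232, 2170.4 and 2082 CPM (1.54 ± 0.21). EBP averaged 23.9 UMIs per seed at 1h and 187 at 1d, and it alone held most UMIs of the list at 1d. The higher share of the hypoxia list thus rests largely on EBP. ADH1 stood at 537, 470.0 and 636 CPM at 1h and 69.3, 77.7 and 80.5 CPM at 1d. Of 36 antioxidant and metal-binding genes 11 rose (30.6%) and 9 fell (25%, near the 22.3% of all genes), with a median of 0.10, whereas in UMIs per seed 24 were higher and none lower. MT2A (AT3G09390), a metallothionein, fell from 1984, 1871 and 2578 to 484, 595 and 464 CPM, with a log2 fold change of -0.64 and no call in UMIs per seed. Of 14 ethylene genes 3 were called higher (21.4%, near the 16.6% of all genes), or 6 without the third library of 1h, and 11 were higher in UMIs per seed. The 3 included the receptors ETR2 (AT3G23150, 1.47 ± 0.35) and ERS2 (AT1G04310, 1.37 ± 0.33).

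Some of the largest changes lay outside these functions. CYS2 (AT2G31980), a phytocystatin that inhibits cysteine proteases, rose from 11.3, 8.17 and 8.87 to 1056, 922 and 679.7 CPM (6.55 ± 0.29, edgeR adjusted p = 1.06e-10). PDF1.4 (AT1G19610), a defensin-like protein, rose from 10.3, 10.6 and 6.65 to 739.5, 444 and 517 CPM, and TI1 (AT2G43510), a trypsin inhibitor, from 17.5, 6.54 and 7.76 to 508, 349 and 386 CPM. DEG14 (AT5G27660), a trypsin-family protease with a PDZ domain, rose by 5.65 ± 0.29. The list of phytocystatins and proteases of the seed, to which CYS2 belongs, had 2 rises and 4 falls among 11 tested genes (median -0.50), and in UMIs per seed 5 were higher and 1 lower. RD21A (AT1G47128), a cysteine protease, fell by 2.67 ± 0.52 (-1.31 and no call in UMIs per seed). AT1G06537, a transcript with no protein product, had no count at 1h and 187 counts at 1d, which is at least 7.58-fold higher against a floor of 3 counts per library. Among the falls HEMA3 (AT2G31250), a glutamyl-tRNA reductase of tetrapyrrole synthesis, went from 35.02, 39.2 and 14.4 to 0.703, 0.719 and 1.5 CPM, with an r of 0.54 with the unspecific UMIs and a rank correlation of -0.03 within 1h. AT2G25625, annotated as a histone deacetylase-like protein, fell from 177, 181 and 247 to 3.16, 3.6 and 4.87 CPM, and AT3G07365, a transcript with no protein product, from 220.4, 128 and 164 to 2.81, 2.16 and 4.87 CPM.

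To see how these changes compare with another step of the time course, they were set against the recovery step (7d+24h against 7d). In it, seeds treated for 7 days at 30 °C in the dark were moved to light at 22 °C for 24 h. Light and temperature thus changed together in recovery. The 2 steps share no library, and the difference between them was tested in a fit over these 12 libraries. It was past the threshold in 2876 of 18678 genes in the direction of a higher change in the first day (15.4%) and in 2238 in the other (12%). With library totals in place of TMM factors, the median difference over all genes moved from -0.06 to -0.55 and the split became 1463 and 3835. Small heat shock proteins fell more in the first day in 12 of 19 genes, with none in the other direction, and their median in recovery was -1.93. The change of ribosomal proteins was more positive in the first day in 114 of 271 genes and more negative in 9, and their median in recovery was 1.13. For the proteasome these numbers were 12 and none of 44 genes, and for folding in the endoplasmic reticulum 23 and 2 of 49. For photosynthesis the change was more negative in the first day in 25 of 54 genes and more positive in 3, with a median of 0.22 in recovery against the -0.79 of the 32 genes tested in the first day.

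Of the 10 storage protein genes 6 had a more positive change in the first day than in recovery and none a more negative one, and their median in recovery was -1.80. In the levels of the 12-library fit, CRA1 was at 11469.5 ± 2321 CPM (SD, n = 3) at 1h and 101512 ± 1385 CPM at 1d, and at 36892 ± 4042 CPM at 7d and 10684 ± 1036 CPM after recovery. PHYA, which rose in the first day, was at 641 ± 36.4 CPM at 7d and fell to 261 ± 24.3 CPM in recovery. DOG1, which fell in the first day, was at 15.8 ± 0.508 CPM at 7d and rose to 32.9 ± 13.8 CPM in recovery. The libraries of recovery spread from 19.8 to 47.2 CPM, and the log2 fold change of 1.04 was just past the threshold. In all, 171 genes rose in the first day and fell in recovery with a difference past the threshold, and 136 fell first and rose in recovery.

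**Figure D5:**
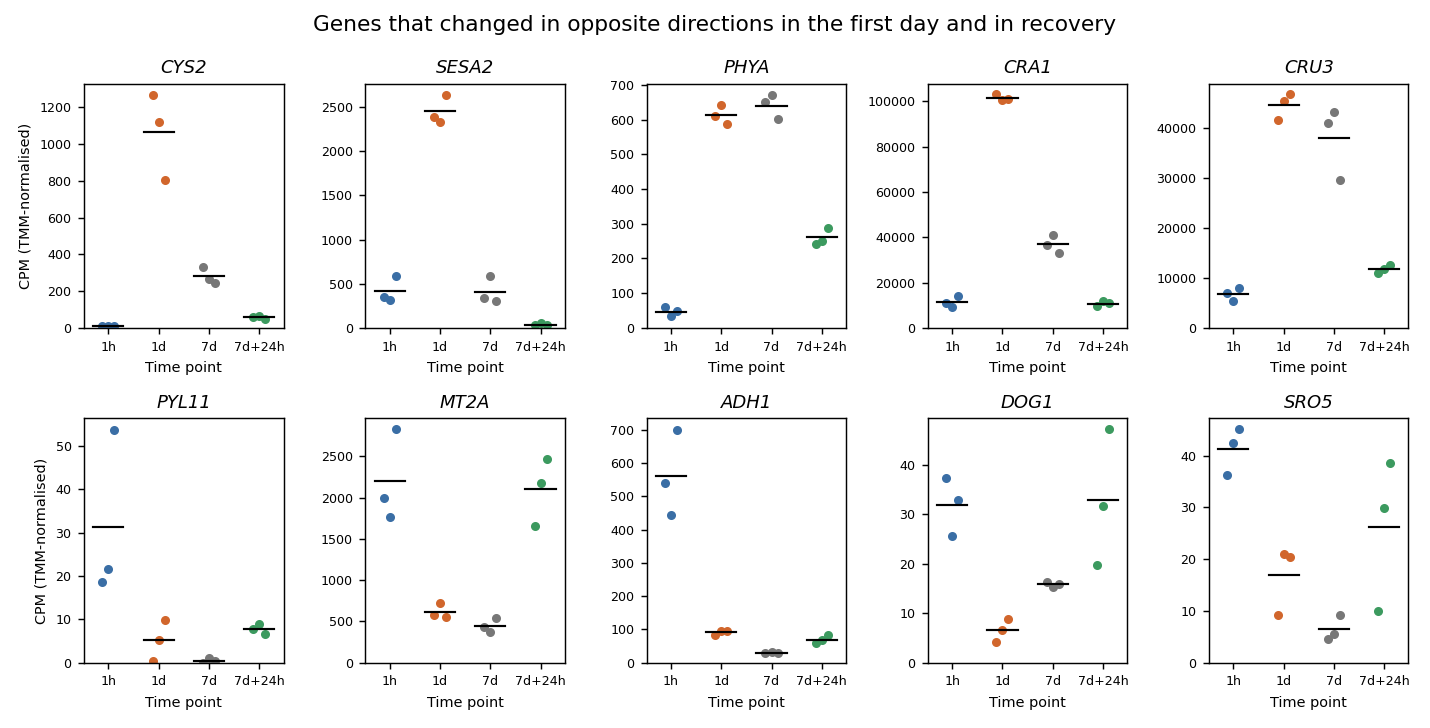
Levels in each of 12 libraries (CPM, linear axes starting at 0) for 10 genes called in opposite directions in the first day (1h to 1d) and in recovery (7d to 7d+24h), the 5 with the largest difference on each side among named genes so called that reach 20 CPM at 1h or 1d, with bars for the mean of 3 libraries. CYS2, SESA2, PHYA, CRA1 and CRU3 rose and then fell, and PYL11, MT2A, ADH1, DOG1 and SRO5 fell and then rose.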

How the data were processed

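Polyadenylated RNA of single seeds was sequenced at its 3′ end, with a barcode per seed and a UMI per transcript. After removal of poly(A) tails, the authors aligned reads to TAIR10 with STAR 2.7.8a and, from uniquely mapped reads, obtained sense-strand UMIs for Araport11 genes with BRB-seqTools. For each seed the authors deposited raw counts of UMIs. Rows on the 5 nuclear chromosomes were used (36899 of 37184 gene rows). Reads assigned to no gene, left out of library sizes and tests, were 39.2 to 58.4% of the UMIs at 1h and 15.8 to 21.9% at 1d. Seeds with at least 5000 nuclear UMIs were kept and summed per library, the replicate (n = 3 per time point).

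Genes were kept by filterByExpr with a minimum count of 10, scaled by TMM and tested with glmQLFTest of edgeR 4.0.16 in R 4.3.3, with Benjamini-Hochberg adjustment over all tested genes. Calls required an adjusted p below 0.05 and a change of more than 1 on the log2 scale. Standard errors were obtained by dividing the absolute log2 fold change by √F. Shares of UMIs were compared by exact two-sided permutation. The difference from the recovery step was an interaction over 12 libraries. The test was checked on simulated data. Intervals and floors cover counting error only.

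Named genes were the 10 largest rises and 10 largest falls among called genes that do not overlap and reach 20 CPM, up to 3 rises, 3 falls and 2 most abundant members per list, and all tested members of the ABA and gibberellin lists. LCR67 and the untested heat shock genes were named after their values were seen. Lists were drawn up by symbol, locus or product name. Correlations with the unspecific UMIs were taken over the kept seeds of all time points and the pool-split control, and a rank correlation of shares was taken within 1h. The genes compared and the lists were chosen with earlier results of these data known. Alternatives were DESeq2 1.42.0, other scalings, gene and seed filters, thinning of seeds to 5000 UMIs, 18 libraries in the fit, the replicate number as a block and leaving out single libraries. Promoters are the 200 bases before the start annotated by RefSeq for TAIR10.1.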

Additional observations from a re-analysis of the deposited data

Results flagged for a closer look

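Among named genes with a mean of at least 20 CPM at 1h or 1d that were called in opposite directions, the 5 with the largest difference on each side are given. In these 10 genes the change of the first day and that of the recovery step (7d+24h against 7d) were called in opposite directions, and the difference between them (first day minus recovery, log2, from the interaction term of edgeR over 12 libraries) was past the threshold. It was 9.09 for CYS2, 6.02 for SESA2, 5.03 for PHYA, 4.93 for CRA1 and 4.41 for CRU3, which rose and then fell. It was -6.79 for PYL11, -4.06 for MT2A, -3.83 for ADH1, -3.31 for DOG1 and -3.16 for SRO5 (AT5G62520), which fell and then rose. The adjusted p of these 10 differences lay between 4.86e-14 for CYS2 and 0.000186 for SRO5. With library totals in place of TMM factors, the median difference of all genes was -0.55, so that differences in either direction are to be read against that value. FER1 (AT5G01600), at 18.5 CPM at 1h, was just below the minimum and had a difference of -5.04. Every one of the 10 is larger in size than this shift. PYL11 was counted at 0.470 ± 0.562 CPM (SD, n = 3) at 7d, and its rise in recovery therefore rests on few counts. DOG1 was also low, with means of 1.02 UMIs per seed at 1h and 0.469 at 1d. Its rise in recovery, of 1.04 on the log2 scale, was just past the threshold.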

How the results depend on the processing

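The counts of 2453 higher and 3295 lower genes stayed within 1.5 times under DESeq2 (2073 and 3257), library totals (2595 and 3162), upper quartile factors (2278 and 3390), other minimums of seeds, protein-coding genes alone (2081 and 2748) and a limit on the share-based correlation with unspecific signal (2169 and 2926). They were 9455 and 1294 in UMIs per seed, 1239 and 1281 of 7860 genes with a mean of 1 UMI per seed, 5274 and 7115 of 35310 genes without a filter, 530 and 514 of 2263 genes with seeds thinned to 5000 UMIs, 3575 and 7503 of 21864 genes with 18 libraries in the fit, and 1754 and 1810 of 12650 genes below an r of 0.3 with the unspecific UMIs. All of these but UMIs per seed differ in the number of genes tested. UMIs per seed replaces TMM factors by the number of seeds and so takes in how much was captured per seed. Otherwise the cause was not tested. Leaving out single libraries gave 2240 to 2390 higher and 3161 to 3434 lower genes. The difference from recovery, 2876 and 2238, became 1463 and 3835 with library totals, 2515 and 2228 with protein-coding genes, and 2517 to 3259 and 1597 to 2690 without single libraries. In UMIs per seed the sign of ABI5 (0.072), GEA6 (0.027), RGL3 (0.088), RAB18 (0.071) and ABA1 (0.063) turned, and the calls of CRU2 (-0.80), SESA3 (-0.87), EPR1 (-0.44), AHG1 (-0.49), PYL11 (-1.38), MT2A (-0.64), PDC2 (-0.43), CYP707A2 (-0.42), GA3OX1 (-0.91) and ATOEP16-2 (-0.13) were lost. Differences in share near 0 also turned, that of the ABA list to -0.00334 percentage points without the third library of 1d (up to 0.0432 without others), and that of antioxidant genes to -0.0552 with protein-coding genes and to between -0.114 and 0.154 without single libraries.

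Same-numbered libraries of 1h and 1d did not deviate together from their means (r = 0.019, -0.115 and -0.102), so that the numbers do not pair the samples. With the replicate number as a block 2400 genes were higher and 3215 lower, and for the difference from recovery 2873 and 2078. The lowest library held 957862 nuclear UMIs, which limits the precision of genes at a few CPM.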

Other observations

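A single seed of the second library of 1h had the lowest share of LEA proteins (1.08%), of storage proteins (1.35%) and of small heat shock proteins (0.126%) among the 94 seeds of 1h. Its share of ribosomal proteins was 2.42%, above the 1h median of 1.24%. Among the seeds of 1d, the seed with the highest share of small heat shock proteins had 0.590%, against a median of 0.0341%.

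The photosynthesis list reached 1.96% of the nuclear UMIs in a single seed of 1h, against a median of 0.116% at 1h, while no seed of 1d exceeded 0.161%. The vegetative markers reached 0.631% in a seed of 1h against a median of 0.0193%.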
